A study of Leptinotarsa decemlineata with 61 samples.

Results

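Fertilized eggs of the Colorado potato beetle, Leptinotarsa decemlineata, were compared with the ovaries of adult females, to see which ovary transcripts are still present in laid eggs, which are lost and which appear. The comparison uses 6 of the 61 RNA-seq libraries of a gene expression atlas of this beetle, 3 of eggs and 3 of ovaries (replicates 1, 2 and 4 of each). They were chosen by library name and title, because the tissue field of their labels names another sample type (genital ducts or female fat body for the egg libraries, malpighian tubules for the ovary libraries). Each egg library was made from 5 whole eggs pooled, and each ovary library from the ovaries of a single adult female, dissected 7 days after emergence. All samples came from untreated wild-type beetles of 1 laboratory strain, and the females were kept in individual dishes from emergence. The sources used here give neither the age of the eggs nor the mating of any female. Females kept singly from emergence had no mate in the dish, so the fertilized eggs are taken to come from other females. Mating may thus differ between the groups along with the sample type, and its part was not tested. An ovary holds developing oocytes, nurse cells and follicle cells, so the ovary values are averages over these cell types, and fewer cells of a type and less RNA per cell cannot be told apart.

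In insects the early embryo starts with transcripts that the mother loaded into the oocyte. In ovaries with nurse cells, such as those of leaf beetles, these cells supply most of this maternal RNA, while the follicle cells around the oocyte secrete the vitelline membrane and the eggshell and do not become part of the embryo. Maternal transcripts are later cleared while the genome of the embryo becomes active, a change known as the maternal-to-zygotic transition.

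The values are TPM (transcripts of a gene per fixed total of transcripts), which the authors computed from read pairs counted on their own gene annotation, for 15578 genes. The egg libraries held 16688984, 15518335 and 13428349 read pairs on these genes (replicates 1, 2 and 4), and the ovary libraries 18579970, 15905474 and 17336919. At the median gene length of 1209 bp, 1 read pair was worth 0.0499 to 0.0796 TPM, so a level of 1 TPM rested on more than 10 read pairs at that length. Between 10933 and 11013 genes were above 1 TPM in an egg library, against 9102 to 9614 in an ovary library. The 10 highest genes of each library took 7.69% to 9.86% of all TPM in eggs, against 56.4%, 35.3% and 25.6% in ovaries 1, 2 and 4. TPM are shares of a fixed total, so the levels of all other ovary genes are lowered by this, most in ovaries 1. Calls are therefore also given after median-of-ratios scaling, which sets the libraries to the same typical gene.

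The 6 libraries were described with genes specific to the tissues that the tissue field names, in lists made without egg or ovary values. The libraries that made these lists were themselves grouped by title and chosen genes high in them. The values below thus cannot decide between title and tissue field. The 114 malpighian tubule genes summed to 815, 1710 and 2045 TPM in ovaries 1, 2 and 4, against 83851 to 184210 TPM in 6 malpighian tubule libraries. The 57 genital duct genes summed to 2222, 242 and 330 TPM in eggs 1, 2 and 4, against 11234 to 15199 TPM in 3 genital duct libraries, and the 26 fat body genes to 272, 292 and 234 TPM, against 1010 to 4884 TPM in 9 fat body libraries. Each of these sums lay below that of every library titled as the tissue, which the way the lists were made favours. No ovary or egg marker could be checked by name. None of the gene identifiers matched a named gene in the reference table, so the text uses identifiers and positions, without gene names or roles.

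The eggs and the ovaries differed in 54.2% of the genes tested. Of 11887 genes tested, 4072 were called higher in eggs (34.3%) and 2366 lower (19.9%), by limma on log2(TPM + 1) with Benjamini-Hochberg adjustment at a threshold of 0.05. After median-of-ratios scaling 4538 genes were higher (38.2%) and 4009 lower (33.7%), together 71.9%, so the share of higher genes among those called was 63.2% as deposited and 53.1% after scaling. Both scalings called 3880 genes higher and 2335 lower, and 0 genes changed direction. The count of lower genes depended on ovaries 1, and it rose to 3793 when that library was left out. The median difference over all genes tested, eggs minus ovaries, was 0.25 on the log2 scale, and 0.09 after scaling. It ranged from 0.03 without ovaries 1 to 0.46 without ovaries 4. Differences beyond 5 on the log2 scale were called for 361 genes higher and 215 lower in eggs (332 and 225 after scaling). The values of all 3 egg libraries lay above all 3 ovary libraries for 4601 genes (38.7% of those tested) and below them for 2572 (21.6%), together 60.3%.

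The Euclidean distance on log2(TPM + 1) averaged 258.6 ± 9.86 (SD) over the 9 pairs of an egg and an ovary library, and 90.4 ± 18.2 over the 6 pairs within a group. The between-group distance exceeded the within-group distance by 168.2, and the exact permutation test over the samples (20 arrangements) gave a one-sided p of 0.1, the smallest that 3 against 3 allows. Ovaries were not the sample type nearest to eggs. Eggs lay nearest to adult male hindgut (224.0) and to second instar (L2) larvae (225.2), and 7 sample types were nearer to them than ovaries.

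To describe the fate of ovary transcripts, a gene was taken as present in a group at more than 1 TPM in all 3 libraries, and as absent at 1 TPM or less in all 3. Of 8610 genes present in ovaries, 7919 were still present in eggs (92.0%), 473 were lost (5.49%) and 218 were above 1 TPM in some egg libraries only (2.53%). Of 10244 genes present in eggs, 1526 were absent from ovaries and are called appearing (14.9%), and 799 were mixed in ovaries (7.80%). Another 2955 genes were absent from both groups. The classes were set by the same TPM values that limma tested, so the calls inside them are a description: 467 of the 473 lost genes were called lower, and 1511 of the 1526 appearing genes were called higher.

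**Figure D1:**
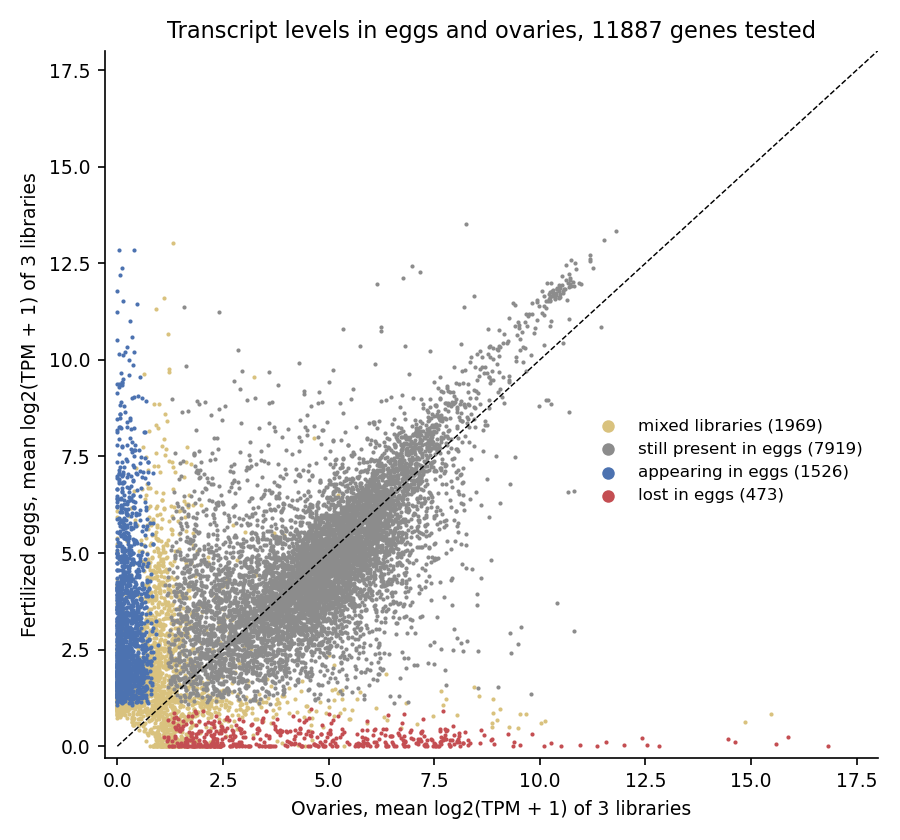
Mean level of each of the 11887 genes tested in fertilized eggs (y axis) and ovaries (x axis), both as log2(TPM + 1) over 3 libraries, coloured by class, with a dashed line of equal levels. The 7919 still present genes spread on both sides of the line, and most of the highest ones lie above it, while the lost genes lie along the bottom and reach the highest ovary levels.

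The lost genes were few but held much of the ovary's messenger RNA. They made up 0.00860%, 0.00782% and 0.0106% of TPM in eggs 1, 2 and 4, against 49.9%, 33.6% and 25.5% in ovaries 1, 2 and 4. Still present genes held 76.8%, 89.3% and 84.0% of TPM in the 3 egg libraries, against 37.7%, 56.6% and 67.4% in ovaries. Appearing genes held 14.7%, 7.72% and 11.7% in eggs, against 0.0274%, 0.0340% and 0.0376% in ovaries. The rule itself sets the lost genes low in eggs and the appearing genes low in ovaries, so what these shares add is how much of each library the classes held.

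**Figure D2:**
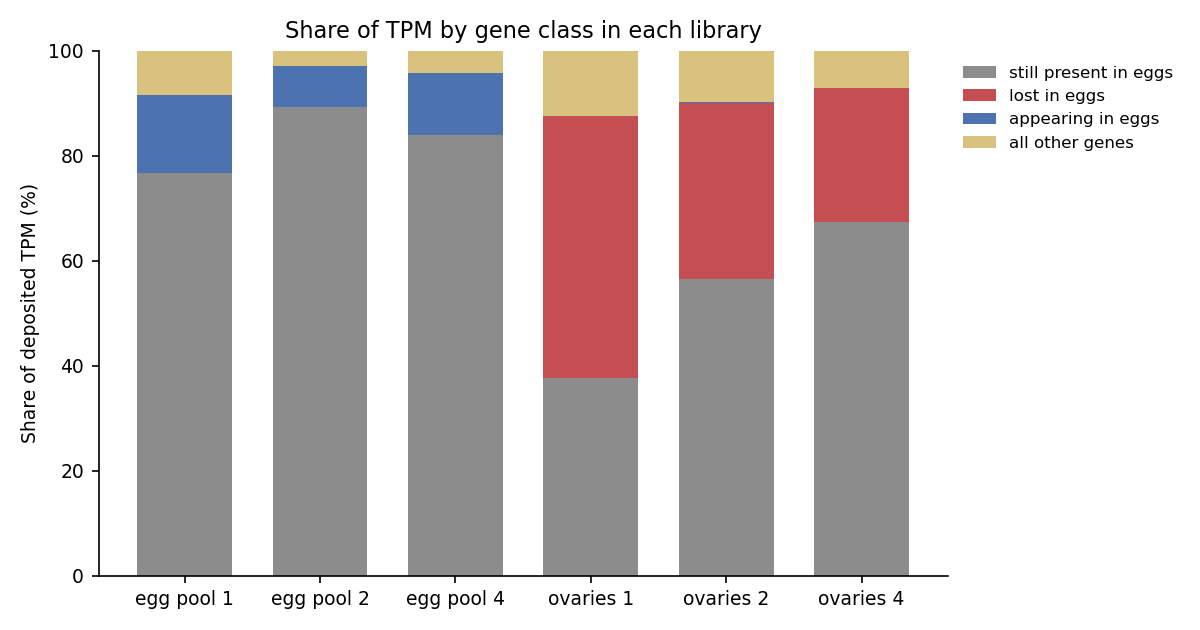
Share of deposited TPM (y axis, %) held by each gene class in the 3 egg pools (left) and the 3 ovary libraries (right). The appearing genes take 7.72% to 14.7% of an egg pool, where the lost genes are too low to see, and the lost genes fill 25.5% to 49.9% of an ovary library.

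The 10 most abundant ovary genes were all called lower in eggs, and the 10 most abundant egg genes were all called higher. Both sets were ranked by the values that limma tested, so these calls are a description. The 10 ovary genes ranged from 0 to 1.42 TPM in the egg libraries, against 2726 to 174214 TPM in the ovary libraries. By the rule above 8 of the 10 were lost, and the other 2 exceeded 1 TPM in at least 1 egg library. Together they held 55.9%, 35.3% and 25.5% of TPM in ovaries 1, 2 and 4. Among the 100 most abundant ovary genes 79 were still present and 17 were lost, while 65 were called higher in eggs and 30 lower.

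Loss was most frequent at the 2 ends of the abundance range. Of the genes present in ovaries with a mean of 1 to 10 TPM, 10.5% of 2022 were lost, and of those with 10 to 100 TPM 2.75% of 5420. From 100 to 1000 TPM 8.91% of 1066 genes were lost, and above 1000 TPM 17 of 102 (16.7%). At the low end a fall of a few TPM is enough to cross the limit, whereas the 17 highest lost genes fell to a sum of 1.44, 0.261 and 1.38 TPM in eggs 1, 2 and 4, against 471707, 302220 and 219700 TPM in ovaries 1, 2 and 4.

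LdNA_16353 fell most of all genes tested. It lies on chromosome 8 (10696117 to 10700164, plus strand, 7 exons, summed exon length 408 bp) and had 0 read pairs in each of the 3 egg libraries, against 174214, 113980 and 78254 TPM in ovaries 1, 2 and 4 (1178772, 588529 and 414765 read pairs). A count of 0 allows up to 3 read pairs, or 0.540, 0.636 and 0.707 TPM in eggs 1, 2 and 4, so the gene was at least 110613-fold lower in eggs, from the lowest ovary library and the highest of these limits per library. The fitted difference was -16.82 (SE 0.31, adjusted p = 1.7e-09, limma). The groups are far apart, and ovaries 1 was the highest library and ovaries 4 the lowest. Outside ovaries the gene reached 174 TPM in a female fat body library (replicate 2) and a median of 23.6 TPM in aedeagus, and it was above 1 TPM in 6 of the 53 other atlas libraries.

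LdNA_15163 had the highest ovary mean among the remaining lost genes. It lies on chromosome 7 (37461093 to 37464287, minus strand, 9 exons, 1553 bp). It had 0.237, 0.167 and 0.124 TPM in eggs 1, 2 and 4 (5, 3 and 2 read pairs), against 94509, 55789 and 40676 TPM in ovaries 1, 2 and 4. The difference was -15.64 (SE 0.32, adjusted p = 2.8e-09, limma). The egg levels are at the limit of detection, and the order of the ovary libraries was the same as for LdNA_16353. Its highest value in any other atlas library was 33.1 TPM, also in female fat body replicate 2.

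A part of the lost genes did not pass 1 TPM in any of the 53 other atlas libraries. This held for 114 of the 473 (24.1%), against 8 of the 7919 still present genes and 82 of the 1526 appearing genes (5.37%). Of all 15578 deposited genes 338 (2.17%) were this low there. Such genes entered the deposited table through the egg and ovary libraries (or those the study removed), so these shares are a description. The ovary-specific genes were also described, chosen by the tau index (which runs from 0 for even to 1 for single-tissue expression) over the 9 dissected tissues, without the egg libraries. Because these genes were picked for high values in the same 3 ovary libraries, a lower level in eggs is partly set by the choice, and their counts are a description. Of 273 such genes 189 were lost (69.2%), 32 were mixed in eggs and 43 were still present (15.8%), with a median level of 0.202 TPM in eggs, against 99.7 TPM in ovaries.

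Among the other sample types, lost genes were most often found in testes. There 47.1% of them had a median above 1 TPM (79.4% of all genes tested did), against 16.1% or more in every other type, up to 142 of the 473 in female hindgut. Testes were also the other sample type with the highest median for 108 of the 473 lost genes, but the same share over all genes was not computed. In first instar (L1) larvae 336 lost genes (71.0%) were absent from all 3 libraries and 115 (24.3%) were present in all 3, against 79.3% of all genes tested.

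Some lost genes lay beside each other in the order of the deposited genes, which leaves out annotated genes that were filtered. Of the 473, 104 (22.0%) were next to another lost gene, and 9 runs of at least 3 lost genes held 34 of them. The share expected from position alone was not computed, so these counts are a description. The longest run, 6 genes on 1 strand of chromosome 10 (3945399 to 4027543), had egg means of at most 0.319 TPM, against ovary means of 31.1 to 289 TPM. A run of 5 genes on 1 strand of chromosome 9 (43433448 to 43696080) had egg means of at most 0.0314 TPM, against 715 to 4493 TPM in ovaries. Summed over that run, eggs 1, 2 and 4 held 0.0780, 0 and 0.141 TPM, against 14560, 7212 and 5237 TPM in ovaries 1, 2 and 4. Genes of 1 run that are similar in sequence could share reads, which was not tested.

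The still present genes had a broadly like order of levels in eggs and ovaries. Their median was 24.9 TPM in eggs and 29.5 TPM in ovaries, and the difference between the groups was within 1 on the log2 scale for 62.6% of them. From the 10th to the 90th percentile it ran from -1.55 to 1.60 (-1.72 to 1.42 after scaling). Across these 7919 genes, which are not independent replicates, the mean log2 levels of the 2 groups had a Pearson coefficient of 0.67 and a Spearman coefficient of 0.64. Coefficients of eggs with other sample types are not given here, so these values do not show that ovary levels persisted. Of the still present genes 1660 were called higher in eggs and 1603 lower, and 4656 were not called. After scaling 2234 were higher and 3229 lower, and without ovaries 1 the counts were 1752 and 2997, so the split between higher and lower genes in this class depends on that library and on the scaling. Ovaries 1 was the lowest of the 3 ovary libraries for 88.7% of them.

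The most abundant still present genes stood higher in eggs under both scalings. Of 97 with an average of the 2 groups above 1000 TPM, 91 were called higher and 0 lower (91 and 1 after scaling), with a median difference of 1.36 (1.18 after scaling). Of these 97, 94 were above 10 TPM in every one of the 53 other atlas libraries, and their median length was 654 bp. They held 31.3%, 35.2% and 34.1% of TPM in eggs 1, 2 and 4, against 10.3%, 12.9% and 16.4% in ovaries 1, 2 and 4. Of the 5378 still present genes between 10 and 100 TPM 16.3% were called higher and 22.3% lower, and after scaling 23.6% and 47.0%. In these bins the middle of the range was not shifted as its top was. The bins were set by the values that limma tested, and a high level in 1 group can place a gene in the top bin. These counts are therefore a description.

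The list of genes above 10 TPM in all 53 other libraries, made without egg or ovary values, was shifted less than the abundant genes above. All 1788 were still present in eggs. Limma called 438 higher (24.5%) and 148 lower (8.28%), with a median of 0.32. As deposited, both shares lie below those over all genes tested (34.3% and 19.9%, with a median of 0.25). After scaling 746 were higher (41.7%) and 469 lower (26.2%), with a median of 0.14. Over all genes tested the scaled shares were 38.2% and 33.7%, with a median of 0.09, so the share higher then lay above that of all genes. The median as deposited ranged from 0.06 without ovaries 1 to 0.51 without ovaries 4. Leaving out a library moved these counts, to between 257 (without eggs 2) and 589 (without ovaries 4) higher and between 87 (without eggs 1) and 390 (without ovaries 1) lower. Their summed level was 529388, 626711 and 589243 TPM in eggs 1, 2 and 4, against 237472, 339917 and 413692 TPM in ovaries 1, 2 and 4, with no overlap.

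The 2 most abundant genes that were not called and differed by less than 0.5 are given as examples of genes at like levels in both groups, which does not show whether ovary transcripts persisted or new ones were made. LdNA_24810 on chromosome 12 (46999669 to 47002483, plus strand, 2 exons) had 1664, 2489 and 2340 TPM in eggs 1, 2 and 4, against 1009, 1746 and 2539 TPM in ovaries 1, 2 and 4. The values overlapped (0.37, SE 0.33, adjusted p = 0.364, limma), although without ovaries 4 the gene was called higher (0.68, adjusted p = 0.0488, limma, against 0.0796 to 0.952 in the other alternatives). It was expressed in every sample type, with its highest median in hemolymph at 13388 TPM. LdNA_30935 on chromosome 16 (18977564 to 18989574, plus strand, 7 exons) had 1112, 1700 and 1404 TPM in eggs 1, 2 and 4, against 972, 1688 and 2056 TPM in ovaries 1, 2 and 4. Here too the groups overlapped (-0.11, SE 0.30, adjusted p = 0.771, limma), and after scaling the difference was -0.30 with an adjusted limma p of 0.0518 (0.0454 to 0.957 over all alternatives).

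Appearing genes were numerous and mostly of low level. Their median was 6.32 TPM in eggs and 0.164 TPM in ovaries, and 149 of the 1526 had an egg mean above 100 TPM. Among genes present in eggs they were 29.5% of the 3201 with a mean of 1 to 10 TPM, 7.59% of the 5695 with 10 to 100 TPM, 11.0% of the 1185 with 100 to 1000 TPM, and 19 of the 163 above 1000 TPM (11.7%). In ovaries 200 of the 1526 had 0 read pairs in all 3 libraries. Some lay close to the limit of the rule: 443 reached more than 0.5 TPM in an ovary library, and 406 were below 2 TPM in their lowest egg library. For lost genes the same counts were 125 with more than 0.5 TPM in an egg library and 124 below 2 TPM in their lowest ovary library.

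LdNA_30629 rose most of all genes tested. This single-exon gene lies on chromosome 16 (9773231 to 9774356, minus strand, 1126 bp) and had 6524, 6001 and 10057 TPM in eggs 1, 2 and 4, against 0, 0.0702 and 0 TPM in ovaries 1, 2 and 4 (0, 1 and 0 read pairs). The difference was 12.81 (SE 0.30, adjusted p = 3.4e-09, limma), on a log2(TPM + 1) scale that understates the change of a gene near 0. Its level was high in all 3 egg pools and at the limit of detection in ovaries. Of the other sample types it had its highest median in L2 larvae (34.3 TPM), where replicate 4 reached 1112 TPM, and it was above 1 TPM in 14 of the 53 other libraries.

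LdNA_30596 had the highest egg mean among the remaining appearing genes. It lies on the same chromosome (9340517 to 9341431, minus strand, 2 exons, 828 bp) and had 6316, 5756 and 10972 TPM in eggs 1, 2 and 4, against 0.0728, 0.477 and 0.465 TPM in ovaries 1, 2 and 4. The difference was 12.44 (SE 0.33, adjusted p = 5.3e-09, limma). As with LdNA_30629, eggs 4 was the highest library, and the highest value elsewhere, 969 TPM, was in replicate 4 of L2 larvae.

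**Figure D3:**
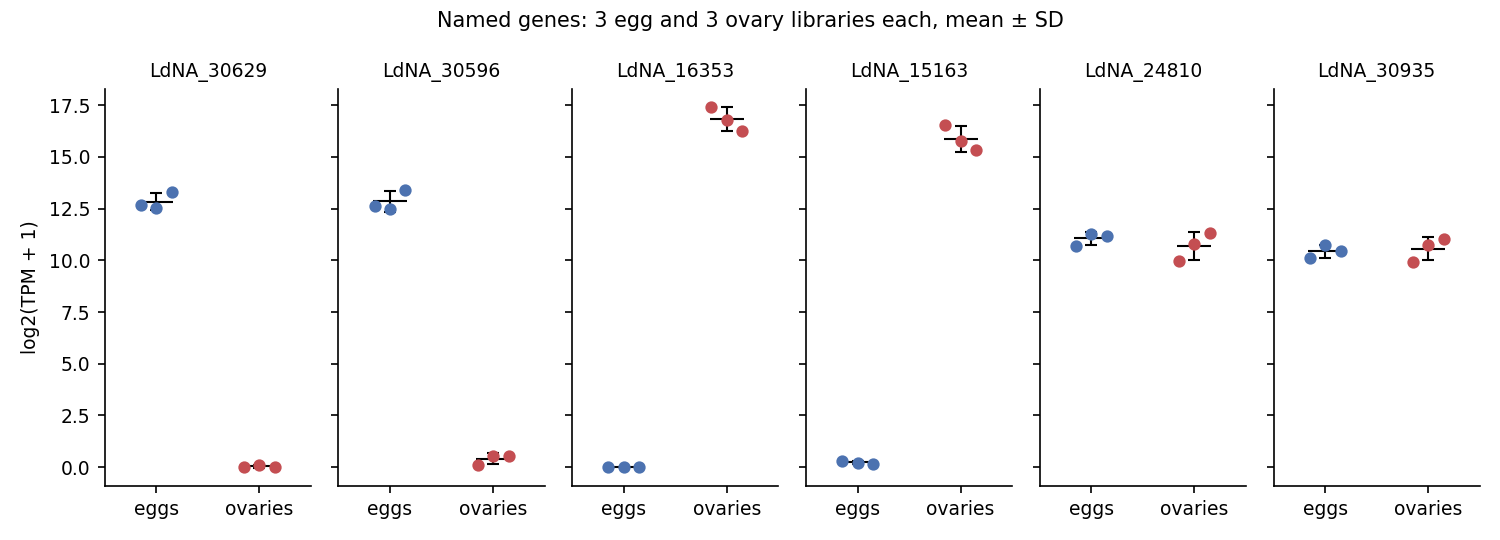
Levels of the 6 named genes as log2(TPM + 1) (y axis) in the 3 egg libraries (left of each panel) and the 3 ovary libraries (right), with points for libraries and bars for the mean ± SD. Eggs and ovaries lie far apart for LdNA_30629, LdNA_30596, LdNA_16353 and LdNA_15163 and overlap for LdNA_24810 and LdNA_30935.

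Both genes lie in a part of chromosome 16 where most genes appeared. Between 7960599 and 9774356, a stretch singled out after the values were seen, 20 of 26 deposited genes were appearing, 22 were called higher, 0 were called lower and 0 were still present. These 26 genes held 1.74%, 2.18% and 3.18% of TPM in eggs 1, 2 and 4, against 0.000438%, 0.000658% and 0.000633% in ovaries 1, 2 and 4. The stretch begins with the longest run of appearing genes, 13 deposited genes in a row on 1 strand (7960599 to 9100228). Their egg means ran from 1.92 to 1464 TPM, and their ovary means were at most 0.372 TPM. Summed over the 13 genes, eggs 1, 2 and 4 held 3426, 8920 and 7871 TPM, against 1.79, 3.46 and 1.71 TPM in ovaries 1, 2 and 4.

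Appearing genes were next to one another elsewhere too. Of 1523 on the 18 chromosomes, 554 (36.4%) had an appearing neighbour in the order of the deposited genes, and 67 runs of at least 3 held 242 genes. Here too the share expected from position alone was not computed, and the counts are a description. The second longest run was 8 genes on chromosome 1 (67662735 to 67788870), with egg means of 5.96 to 84.7 TPM, against at most 0.293 TPM in ovaries. Taken over whole chromosomes the groups differed less: the median difference ran from 0.09 on chromosome 12 to 0.61 on chromosome 18 (-0.08 to 0.46 after scaling). The share of appearing genes was highest on chromosome 18 (13.0% of 437 deposited genes, against 9.80% of all deposited genes), and 7 of 701 genes of chromosome 13 were lost (against 3.04%). These chromosomes were picked after the values were seen.

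Appearing genes were found in every other sample type less often than the genes tested as a whole. Their shares were highest in young larvae: L1 larvae had a median above 1 TPM for 58.9% of them (82.4% of all genes tested) and L2 larvae for 57.1% (81.7%), followed by female hindgut (46.3%), L3 larvae (39.6%), aedeagus (39.3%) and testes (39.2%). The lowest share was in female fat body (15.3%, against 66.0% of all genes tested). In all 3 L1 libraries 790 were present (51.8%, against 79.3% of all genes tested) and 512 were absent (33.6%). The other sample type with the highest median was L1 larvae for 162 appearing genes, testes for 162 and genital ducts for 126, again without the same shares over all genes. Still present genes were found almost everywhere, from 85.8% (female midgut) to 97.5% (L2 larvae), and 6010 of them (75.9%) had a median above 1 TPM in all 19 other sample types, against 9 lost and 5 appearing genes.

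**Figure D4:**
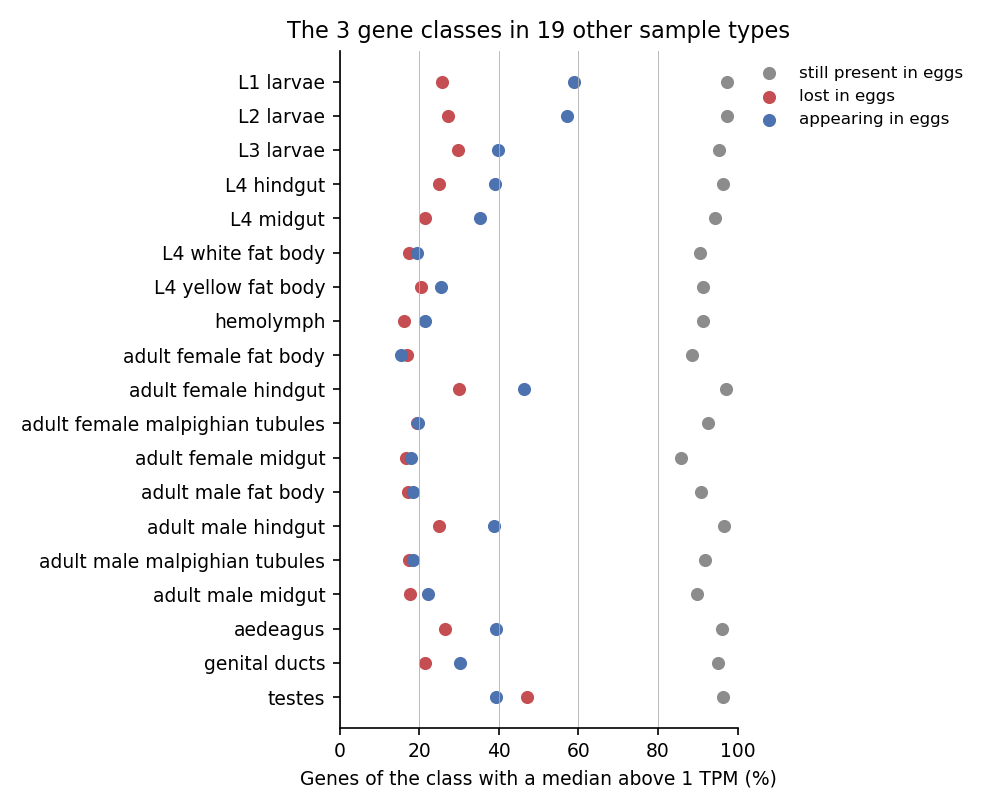
Share of the genes of each class with a median above 1 TPM (x axis, %) in each of the 19 other sample types (y axis). Still present genes lie at 85.8% or more in every type, appearing genes reach their highest shares in L1 (58.9%) and L2 larvae (57.1%), and lost genes in testes (47.1%).

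The L1 list holds 90 genes above 10 TPM in L1 larvae and at or under 1 TPM in every adult sample type other than ovaries. Of these, 51 passed the filter on low values, which a gene high in 1 group passes through that group alone, so their counts describe them and are no support. Of all 90, 37 had egg values above all ovary values (41.1%) and 2 below (2.22%), against 33.0% and 17.8% of all deposited genes. Among the 51 limma called 38 higher in eggs (74.5%) and 1 lower (1.96%), against 34.3% and 19.9% of all genes tested. The median difference of the 51 was 4.45 (4.88 with genes at 0 in one whole group set to the limit of 3 read pairs). After scaling 22 were higher (43.1%) and 2 lower (3.92%), against 38.2% and 33.7% of all genes tested. The share higher was then near that over all genes tested. Without eggs 1 only 25 genes passed the filter, of which 20 were higher and 1 lower, without eggs 4 21 of 26 were higher, and without ovaries 1 21 of 51. The summed level of all 90 genes was 27357, 2928 and 8219 TPM in eggs 1, 2 and 4, against 238, 194 and 169 TPM in ovaries 1, 2 and 4. In eggs 1, 2 and 4 58, 23 and 47 of the 90 genes were above 1 TPM, so the egg pools differed widely among themselves.

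The egg pools also differed in the most abundant appearing genes. For the 19 above 1000 TPM, the highest egg library was a median of 3.39-fold above the lowest, up to 164-fold, against a median of 1.15-fold for the 139 still present genes above 1000 TPM in eggs. Eggs 2 was the lowest for 15 of the 19, eggs 1 the highest for 8 and eggs 4 for 9. Their median level was 3037, 709 and 2542 TPM in eggs 1, 2 and 4, against 0.0767, 0.127 and 0.117 TPM in ovaries 1, 2 and 4. The distance to the ovaries follows from how these genes were chosen, whereas the rule did not set the order of the pools, in which eggs 2 held less of most of these transcripts.

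Eggs 1 lay farthest from ovaries and nearest to L1 larvae. Its mean distance to the ovary libraries was 270.2, against 250.5 for eggs 2 and 255.2 for eggs 4, and its distance to L1 larvae was 230.8, against 248.0 for eggs 2 and 243.6 for eggs 4. Of genes absent from ovaries, 207 were above 1 TPM in eggs 1 alone, 30 of them above 10 TPM and 83 of them present in L1 larvae. For eggs 2 alone the counts were 181, 1 and 23, and for eggs 4 alone 131, 0 and 12. No source used here gives the stage of each pool, so differences in age and other differences between the pools cannot be told apart.

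Lists of genes specific to other dissected tissues, made by tau without egg or ovary values, fell into those above the background and those near it. They are described over all their members, since the members that passed the filter on low values did so partly through the group where they are high. Over all 15578 deposited genes the egg values lay above all ovary values for 33.0% and below them for 17.8%. For hemolymph the counts were 49 above and 7 below of 88 genes (55.7% and 7.95%), for hindgut 35 and 3 of 63 (55.6% and 4.76%), for fat body 14 and 4 of 26 (53.8% and 15.4%), and for genital ducts 30 and 4 of 57 (52.6% and 7.02%). These 4 lists held more genes above the ovaries than the deposited genes as a whole.

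For aedeagus the counts were 55 above and 21 below of 141 genes (39.0% and 14.9%), and for midgut 120 and 56 of 336 (35.7% and 16.7%). For malpighian tubules they were 34 and 19 of 114 (29.8% and 16.7%), and for testes 175 and 151 of 988 (17.7% and 15.3%). Aedeagus, midgut and malpighian tubules thus lay near the background, and testes genes were less often above the ovaries, with 701 of the 988 absent from both groups.

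Eggs 1 stood apart in the genital duct list, with its sum of 2222 TPM, while the 242 and 330 TPM of eggs 2 and 4 overlapped the 112, 205 and 274 TPM of ovaries 1, 2 and 4. The number of genital duct genes above 1 TPM was 38, 35 and 38 in eggs 1, 2 and 4, against 7, 10 and 10 in ovaries 1, 2 and 4. The part of carried-over tissue in these values was not tested.

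**Figure D5:**
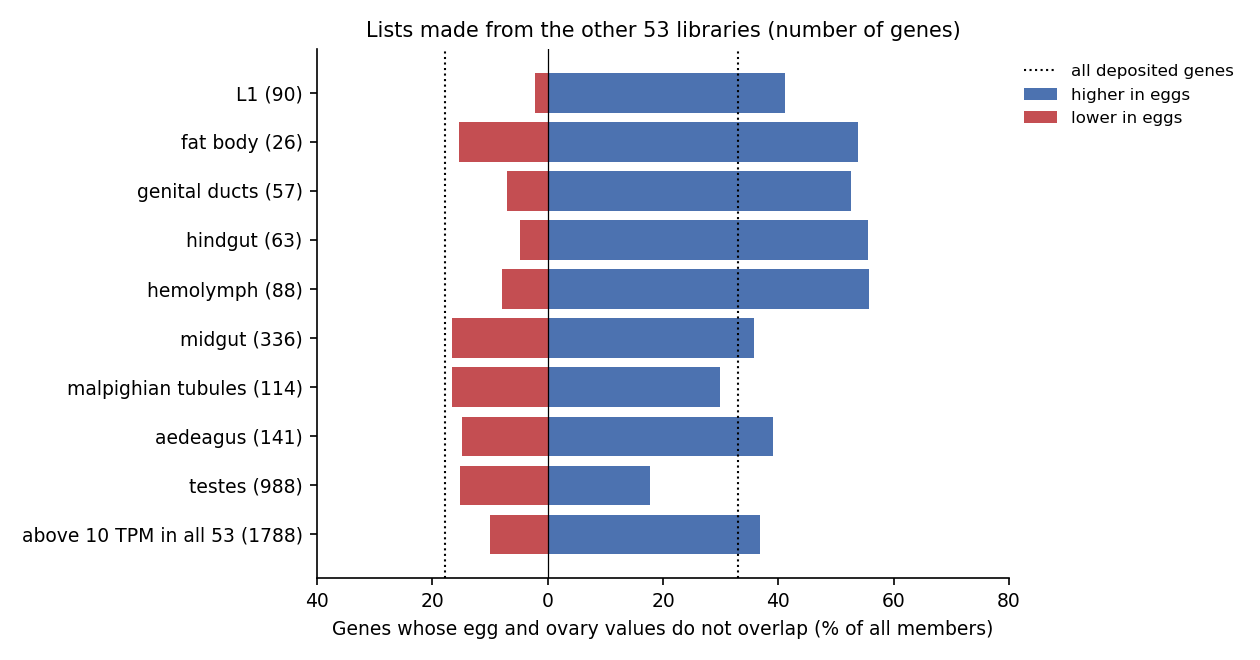
Share of all genes of each list (x axis, %) whose 3 egg values lie above all 3 ovary values (right of 0) or below them (left of 0), for 10 lists made from the other 53 libraries (y axis, with the number of genes). Dotted lines mark the shares over all deposited genes, 33.0% above and 17.8% below, and hemolymph, hindgut, fat body and genital ducts lie farthest beyond the first of them.

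Summed levels could run against the counts. Of the 141 aedeagus genes more lay above the ovaries than below, yet their summed level was 9482, 3423 and 5080 TPM in eggs 1, 2 and 4, against 249220, 159015 and 109569 TPM in ovaries 1, 2 and 4. This came from 2 genes above 1000 TPM in ovaries, with aedeagus medians of 11.4 and 23.6 TPM, and without them the ovary sums were 2134, 1868 and 1010 TPM in ovaries 1, 2 and 4. Since tau was taken over the tissues other than ovaries, a list can hold genes that are far higher in ovaries. Among the 231 testes genes that passed the filter the median difference was -0.38, and it reversed to 0.03 without ovaries 2 and to 0.33 without ovaries 4.

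Genes at or under 1 TPM in all 53 other libraries numbered 338. The deposited table keeps a gene only if it is above 1 TPM in at least 2 libraries, so these genes are in it through the egg and ovary libraries (or those the study removed), and their calls are a description. By class, 114 of them were lost, 82 were appearing and 8 were still present. Of the 329 tested, 128 were called higher in eggs and 171 lower, with a median of -1.05, which turned to 0.40 without ovaries 2 and to 0.05 without ovaries 4.

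Gene structure differed between the classes. Single-exon genes were 8.26% of still present, 20.3% of lost and 15.1% of appearing genes, against 11.7% of all genes tested, to which the 3 classes belong. The median summed exon length was 1647 bp for still present, 1137 bp for lost and 1038 bp for appearing genes, and the median number of exons was 5, 3 and 4. Of the tested genes in the first quartile of length (up to 585 bp) 46.5% were higher in eggs and 15.3% lower, with a median of 0.82. In the fourth quartile 28.2% were higher and 18.9% lower, with a median of 0.10, and over all genes tested 34.3% and 19.9%. Only 58.5% of the deposited genes of the first quartile passed the filter, against 91.1% of the fourth. A gene high in 1 group passes through that group alone, so these shares are a description. Because the libraries did not keep the strand, values of a gene that overlaps another on the opposite strand are uncertain, which applied to 8.26% of still present, 5.50% of lost and 7.14% of appearing genes and to none of the 6 named genes.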

How the data were processed

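The authors trimmed the reads, aligned them with STAR to a chromosome-level assembly (build name not given in the sources used here), counted read pairs per gene with featureCounts (Subread 2.0.5) and deposited TPM for genes above 1 TPM in at least 2 libraries. Libraries were poly(A) selected and non-directional. No per-sample column was unmapped (0 columns). Whole read pairs were recovered from TPM and gene length for 100% of values, within 0.01, and used for depth and a voom alternative. Intervals and limits cover counting error only.

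Fertilized eggs were compared with ovaries by limma 3.58.1 (R 4.3.3, mean-variance trend, two-sided) on log2(TPM + 1), for genes above 1 TPM in at least 2 of the 6 libraries, with Benjamini-Hochberg adjustment over all 11887. On data simulated for this comparison it recovered 195 of 200 genes changed by 2 on the log2 scale, with 12 false calls. In that simulation no other gene changed, and all libraries shared the same mean profile and a fixed spread. It lacked the broad change and the few dominant ovary genes of the real data, so its rates do not carry over to the calls here. The 3 egg libraries are separate pools and the ovary libraries separate females. Replicates differed beyond counting noise (chi-square per gene of 50.8 or more).

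Tissue lists used tau above 0.85 and a median above 10 TPM. Named genes are, in each direction, the one with the largest called difference without overlap, the appearing or lost gene with the highest mean, and the 2 most abundant genes not called. The members and lists were chosen with earlier results of these data known. Of the deposited identifiers 0 matched 20134 reference genes. Alternatives covered pseudocount, filter, scaling, class limits, samples in the fit, voom, a replicate block and the omission of each library. The 2 libraries that the study removed were not used. Python 3.11.15, scipy 1.17.1 and matplotlib 3.10.9 were used.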

Additional observations from a re-analysis of the deposited data

How the results depend on the processing

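The 4 genes named for their change kept their direction and call under every alternative run. Calls lower in eggs numbered 2366 as deposited, 4009 with median-of-ratios scaling, 3923 with voom on recovered read pairs and that scaling, and 1706 to 3793 when each library was left out. The cause was not tested. Calls higher in eggs ranged from 3375 to 4236 when each library was left out. The replicate block gave 4441 higher and 2760 lower, and with median-of-ratios scaling 4438 and 3923. Deviations of same-numbered libraries had correlations of 0.21, 0.03 and 0.01 for replicates 1, 2 and 4, against -0.17 to 0.16 between different numbers. Not every library correlated best with its own number, and the sources used here describe no pairs, so the numbers are not treated as pairs. With the mean of the 3 libraries in place of all 3, 881 genes were lost and 2448 appeared, a looser rule by construction. With limits of 0.5, 2 or 5 TPM, lost genes numbered 445, 486 and 561 and appearing genes 1410, 1504 and 1374. Leaving out each library gave 505 to 619 lost, 1621 to 1715 appearing and 7948 to 8161 still present genes. Medians that changed sign ranged, over these omissions, from -0.67 to 0.33 for the testes list, from -1.29 to 0.40 for genes at or under 1 TPM in the other 53 libraries, and LdNA_30935 from -0.43 to 0.11. LdNA_30935 was called lower with voom and scaling (-0.28) and with the block and scaling (-0.30). Levels under about 1 TPM rest on few read pairs, and the small groups limit all calls.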
